A study of Drosophila melanogaster with 6 samples.

Results

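The 9 genes described here encode regulators of mitosis in Drosophila melanogaster: CycA, Cks30A, Cks85A, polo, BubR1, Mad1, Incenp, Cap-G and sti. They were taken by name from the deposited expression table, with earlier results of these data known. All 9 passed the minimum mean of 1 RPKM over the 6 samples that left 4020 genes for testing. RPKM is the number of reads scaled to the length of the transcript and to the reads of the library. As a set they are wider than mitotic kinases, checkpoint genes and cyclins, since they also hold a condensin subunit, a scaffold of the chromosomal passenger complex and 2 Cdk-binding proteins. RNA came from S2 cells, a line of embryonic origin with features of blood cells. The groups were NAP-1 knockdown, CBP knockdown and a control knockdown, with 2 samples each and no other treatment named in the labels. NAP-1, encoded by Nap1, is a histone chaperone that helps to assemble nucleosomes, and CBP, encoded by nej, is a histone acetyltransferase. The labels name neither the knockdown method nor the target of the control knockdown. They also leave unsaid whether the samples of a group were grown apart, and the p-values therefore measure only the spread between samples, which may be technical.

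In dividing cells, cyclins switch on cyclin-dependent kinases (Cdks), and small Cks proteins bind these kinases and help them to act on their substrates. Polo kinase promotes entry into and passage through mitosis, condensin compacts the chromosomes, and the chromosomal passenger complex, built on Incenp, carries Aurora B kinase to centromeres and later to the midzone. The spindle assembly checkpoint, to which BubR1 and Mad1 belong, delays the separation of sister chromatids until the kinetochores are attached, after which cytokinesis divides the cell. Loss of mitotic regulators in cultured fly cells is known to change the number of chromosomes and nuclei per cell.

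The libraries held between 4162019 and 5362319 alignments. Transcript of Nap1 stood at 20.6 and 26.5 RPKM in NAP-1 knockdown, against 220 and 243 RPKM in control. Transcript of nej stood at 0.899 and 0.363 RPKM in CBP knockdown, against 3.25 and 2.47 RPKM in control. In NAP-1 knockdown nej had 1.26 and 2.41 RPKM, also under both control samples, without passing (limma, adjusted p = 0.978). The log2 difference of nej in CBP knockdown was -1.26 (limma, adjusted p = 0.0463), near the median of -1.06 among the longest transcripts, to which it belongs. Once the trend on transcript length was removed, the difference was 0.45 (limma, adjusted p = 0.254). At the length of nej, 13566.5 nt, the trend taken off was larger than that median, while its RPKM was lower in both CBP knockdown samples. Both differences are on the scale of log2(RPKM + 1), on which a fall at levels as low as those of nej is understated. CBP knockdown differed from control across the table. Of 4020 genes, 697 were lower and 343 higher at an adjusted p under 0.05 (limma on log2(RPKM + 1), Benjamini-Hochberg), and 3469 and 3052 genes reached 1 RPKM in its samples, against 3790 and 3830 in control. Among blood-cell markers, Cg25C and vkg had at least 41.9 and 25.2 RPKM in every library. Values of crq ran between 4.92 RPKM, in CBP knockdown, and 42.8 RPKM, in control, and those of Ppn between 1.04 and 1.97 RPKM. The markers Hml, NimC1 and srp stayed at or under 0.348 RPKM in every library. The 7 blood-cell markers in the table summed to 95.4 and 73.1 RPKM in CBP knockdown and to 195.6 and 189.4 RPKM in control; whether this bears on the mitotic genes was not tested. The summed markers of neurons reached at most 3.50 RPKM (elav the highest), of germ line 3.87 and of muscle 0.118. For lamellocytes and crystal cells a single marker each was read, atilla at no more than 0.144 RPKM and lz at no more than 0.00653 RPKM. In RNA from whole cultures, fewer cells in mitosis and less of a transcript per cell cannot be told apart.

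In CBP knockdown, 8 of the 9 genes were lower than in control and passed the test, all except Incenp, and none was higher and passed. Of all genes tested 25.9% passed, 17.3% as lower and 8.53% as higher. For the same 8 genes both CBP knockdown samples lay under both control samples, beside 42.3% of all genes, and for Incenp both lay above, beside 33.7%. Means in CBP knockdown were between 5.43% (BubR1) and 23.9% (CycA) of control for those 8 genes. Incenp was 2.20 times its control mean but did not pass. The median log2 difference of the 9 genes was -1.94, beside -0.15 over all genes tested. As the 9 genes were chosen with earlier results of these data known, these contrasts with all genes lend no independent support. In NAP-1 knockdown 0 of the 9 genes passed, and their median log2 difference from control was -0.52, beside -0.13 over all genes. Both comparisons use the same control samples.

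**Figure D1:**
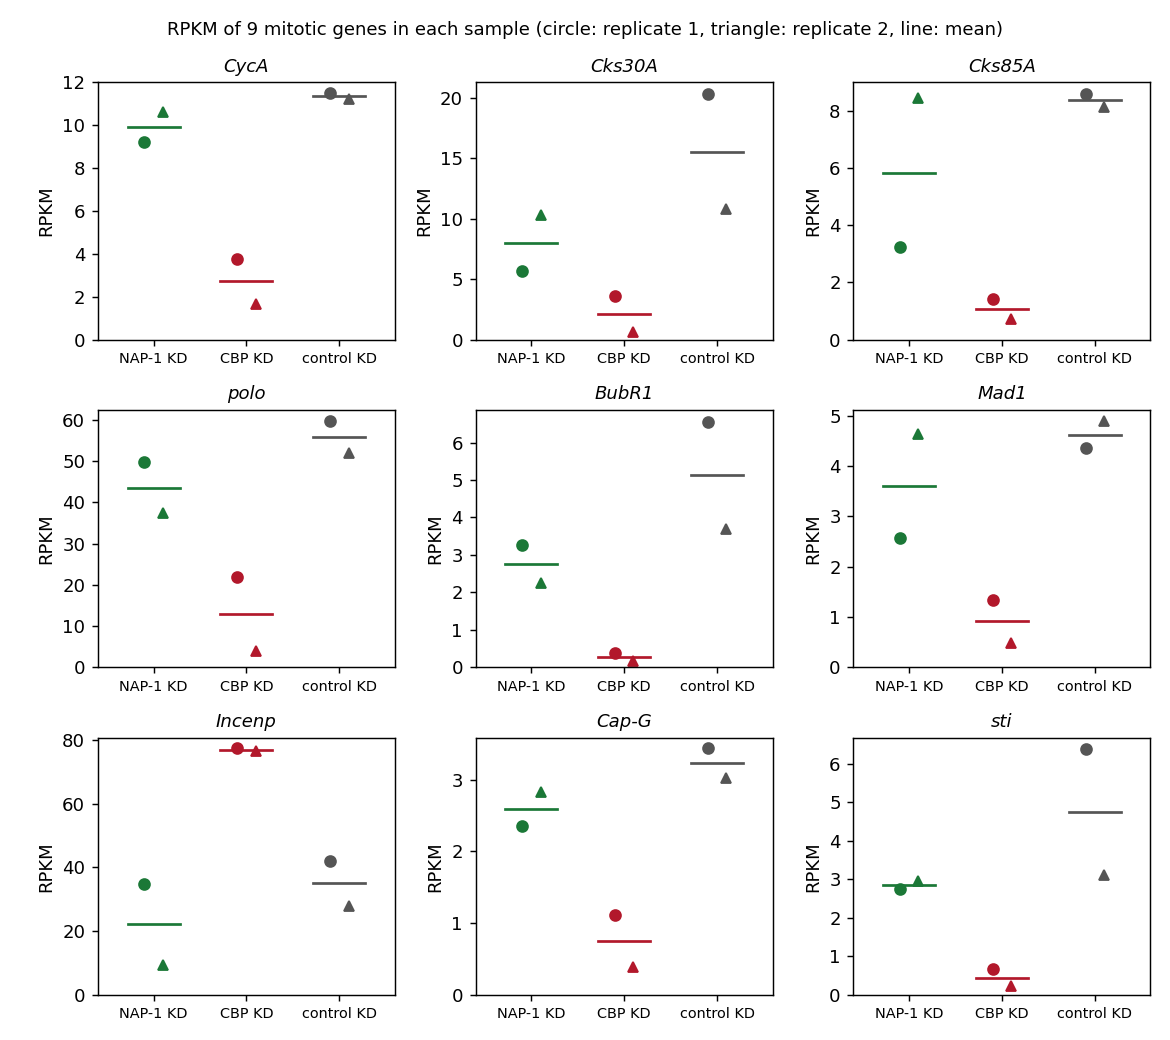
Transcript level of each of the 9 genes in RPKM (vertical axis, starting at 0) in NAP-1 knockdown, CBP knockdown and control knockdown. Each point is 1 sample and each bar is a group mean of 2 samples. For 8 genes both CBP knockdown points lie under both control points; for Incenp they lie above, at 77.3 and 76.5 RPKM.

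CycA encodes cyclin A, which activates Cdk1 before and during early mitosis. Its transcript stood at 9.22 and 10.6 RPKM in NAP-1 knockdown, 3.78 and 1.65 RPKM in CBP knockdown, and 11.5 and 11.2 RPKM in control. Both CBP knockdown samples lay well under the other 4, and the NAP-1 knockdown samples lay just under control. CycA fell in CBP knockdown, at -1.80 ± 0.34 on the log2 scale (SE; limma, adjusted p = 0.0185). In NAP-1 knockdown its log2 difference was -0.18 ± 0.34 (SE), which did not pass (limma, adjusted p = 0.978). The table lists CycA as a symbol and as 1 mRNA with the same values in every sample, counted once here.

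The Cks genes, Cks30A and Cks85A, encode the small subunits that bind Cdks, the regulatory partners of the kinases that cyclins activate. Cks30A stood at 5.64 and 10.3 RPKM in NAP-1 knockdown, 3.64 and 0.595 RPKM in CBP knockdown, and 20.3 and 10.8 RPKM in control. Replicate 1 was the higher of the control samples and the lower of the NAP-1 knockdown samples, and no group overlapped another. Cks30A fell in CBP knockdown, at -2.54 ± 0.58 on the log2 scale (SE; limma, adjusted p = 0.0272). Cks85A stood at 3.23 and 8.45 RPKM in NAP-1 knockdown, 1.42 and 0.708 RPKM in CBP knockdown, and 8.61 and 8.14 RPKM in control. Its control samples were close together, 1 NAP-1 knockdown sample reached their level while the other did not, and both CBP knockdown samples were lower than all others. Cks85A fell in CBP knockdown, at -2.20 ± 0.43 on the log2 scale (SE; limma, adjusted p = 0.0196).

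The Cks85A value is the sum of 2 listed features. The feature named by the symbol alone stood at 2.19 and 3.86 RPKM in NAP-1 knockdown, 1.24 and 0.647 RPKM in CBP knockdown, and 4.82 and 3.76 RPKM in control. The mRNA feature stood at 1.04 and 4.59 RPKM in NAP-1 knockdown, 0.178 and 0.0615 RPKM in CBP knockdown, and 3.79 and 4.38 RPKM in control. Both fell in CBP knockdown when features were tested singly, at -1.45 for the symbol-only and -2.18 for the mRNA feature (limma over 4455 features, adjusted p = 0.0413 and 0.0373). For every pair of Cks85A transcripts in the BDGP6 annotation, at least 82.0% of the exonic bases of the shorter one are shared. How reads were divided between the Cks85A features is therefore uncertain, and these features are not independent measurements.

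The kinase gene polo had the highest mean level of the 9 genes in control. It stood at 49.7 and 37.3 RPKM in NAP-1 knockdown, 21.9 and 4.02 RPKM in CBP knockdown, and 59.6 and 51.9 RPKM in control. The CBP knockdown samples were far apart, replicate 2 being 0.183 times replicate 1 (0.164 times for Cks30A), though both were under every other sample. In CBP knockdown polo fell, at -2.40 ± 0.65 on the log2 scale (SE; limma, adjusted p = 0.0381). That call was narrow: the adjusted p was 0.0521 with a pseudocount of 0.1 and 0.0517 with only the 4 CBP knockdown and control samples in the fit. The table lists 1 of the 2 RefSeq mRNAs of polo, and whether reads of the other are counted in it is not known.

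BubR1 encodes a checkpoint protein that inhibits the anaphase-promoting complex. It stood at 3.27 and 2.25 RPKM in NAP-1 knockdown, 0.385 and 0.172 RPKM in CBP knockdown, and 6.55 and 3.69 RPKM in control. The 3 groups did not overlap, with control highest and CBP knockdown lowest. BubR1 fell in CBP knockdown, at -2.22 ± 0.36 on the log2 scale (SE; limma, adjusted p = 0.0163). Mad1, which brings the checkpoint protein Mad2 to unattached kinetochores, stood at 2.57 and 4.64 RPKM in NAP-1 knockdown, 1.35 and 0.487 RPKM in CBP knockdown, and 4.35 and 4.89 RPKM in control. The higher NAP-1 knockdown sample lay between the control samples, whereas both CBP knockdown samples were under all others. Mad1 fell in CBP knockdown, at -1.59 ± 0.38 on the log2 scale (SE; limma, adjusted p = 0.0303), and did not pass after quantile normalization, at -0.99 (adjusted p = 0.0734).

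Incenp stood apart from the other 8 genes. It had 34.8 and 9.43 RPKM in NAP-1 knockdown, 77.3 and 76.5 RPKM in CBP knockdown, and 42.1 and 27.9 RPKM in control. The CBP knockdown samples were nearly equal and above all others, while the NAP-1 knockdown samples were the most unlike of any group for this gene, with 1 between the control samples and 1 under both. The log2 difference in CBP knockdown was 1.14 ± 0.56 (SE; limma, adjusted p = 0.159, 95% interval -0.18 to 2.46). It passed when the spread came from the CBP knockdown and control samples alone (adjusted p = 0.0284) and without either NAP-1 knockdown sample (adjusted p = 0.0312 without replicate 1 and 0.0291 without replicate 2). The NAP-1 knockdown samples do not enter this difference and act only through the shared estimate of the spread.

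Incenp is listed as 2 features that differ in level and pattern. The mRNA feature carried most of the value, at 33.6 and 5.08 RPKM in NAP-1 knockdown, 75.5 and 74.0 RPKM in CBP knockdown, and 40.7 and 25.1 RPKM in control. The symbol-only feature stood at 1.25 and 4.35 RPKM in NAP-1 knockdown, 1.85 and 2.46 RPKM in CBP knockdown, and 1.37 and 2.82 RPKM in control. Replicate 2 exceeded replicate 1 for the symbol-only feature in every group, and was under it for the mRNA feature in every group. Tested singly, the mRNA feature had a log2 difference of 1.20 in CBP knockdown and the symbol-only feature of 0.06, neither of which passed (limma, adjusted p = 0.278 and 0.941). For every pair of Incenp transcripts in the BDGP6 annotation, at least 94.6% of the exonic bases of the shorter one are shared. How reads were divided between the Incenp features is therefore uncertain.

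**Figure D2:**
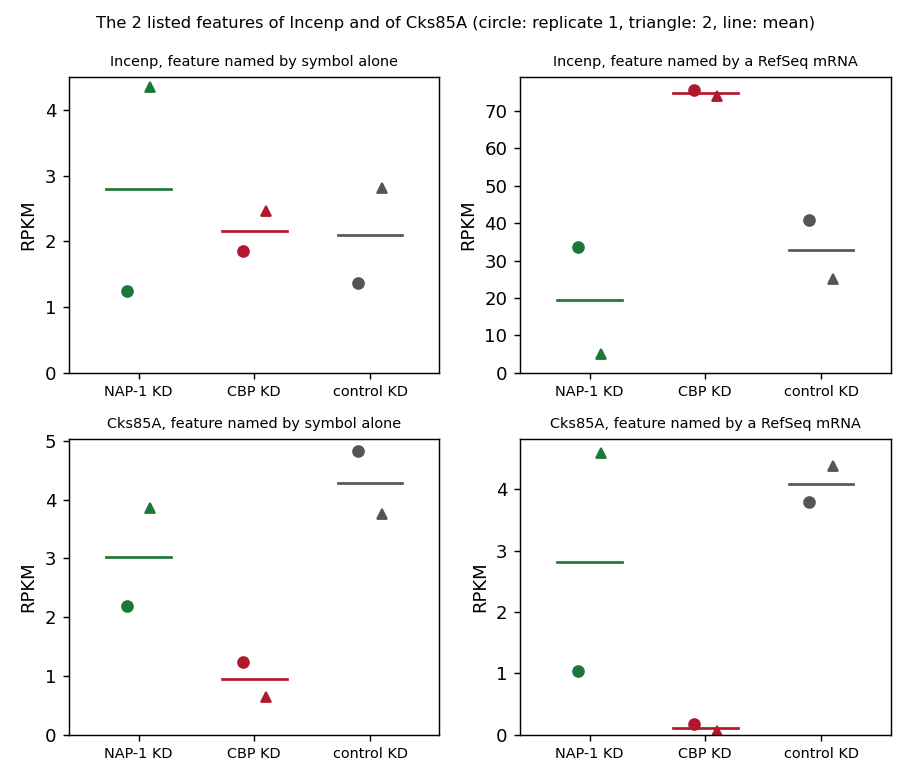
RPKM (vertical axis, starting at 0) of the symbol-only and mRNA features of Cks85A and Incenp in NAP-1 knockdown, CBP knockdown and control knockdown; each point is 1 sample and each bar a mean of 2. Both Cks85A features are lowest in CBP knockdown, while the Incenp mRNA feature is highest there, at 75.5 and 74.0 RPKM, and its symbol-only feature stays between 1.25 and 4.35 RPKM in all samples.

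Cap-G encodes a subunit of condensin. It stood at 2.36 and 2.82 RPKM in NAP-1 knockdown, 1.11 and 0.387 RPKM in CBP knockdown, and 3.43 and 3.03 RPKM in control. The groups did not overlap. Cap-G fell in CBP knockdown, at -1.30 ± 0.34 on the scale of log2(RPKM + 1) (SE; limma, adjusted p = 0.0347), and its mean was 23.1% of control, close to CycA (23.9%) and polo (23.2%). It did not pass after quantile normalization (-0.65, adjusted p = 0.109). Cap-G is listed as a symbol and as 1 mRNA with the same values in every sample, counted once here. With both summed, its log2 difference in CBP knockdown was -1.64 (limma, adjusted p = 0.0257). The gene sti encodes Citron kinase, which acts at the midbody late in cytokinesis. It stood at 2.75 and 2.96 RPKM in NAP-1 knockdown, 0.669 and 0.231 RPKM in CBP knockdown, and 6.38 and 3.12 RPKM in control. The lower control sample was close to the NAP-1 knockdown samples, and both CBP knockdown samples were far under it. In CBP knockdown sti fell, at -1.94 ± 0.38 on the log2 scale (SE; limma, adjusted p = 0.0198), for the 1 of its 2 RefSeq mRNAs in the table.

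**Figure D3:**
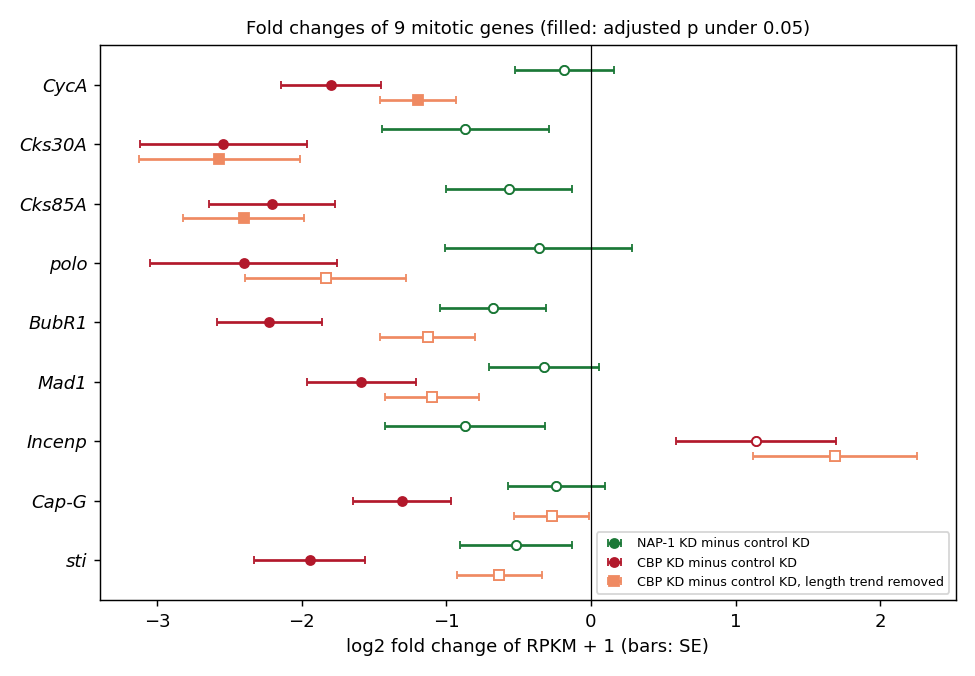
Log2 fold change of RPKM + 1 (horizontal axis; bars, SE) for the 9 genes: NAP-1 knockdown minus control, CBP knockdown minus control, and CBP knockdown minus control after removal of the trend on transcript length. In CBP knockdown 8 genes lie between -2.54 and -1.30 and Incenp at 1.14; in NAP-1 knockdown all 9 lie between -0.87 and -0.18.

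Several of these levels were low. From RPKM, transcript length and alignments, CBP knockdown replicate 2 held roughly 4.26 reads of BubR1, 3.66 of Cks30A, 2.53 of Cks85A, 6.37 of Mad1, 7.52 of sti and 8.95 of Cap-G, against 57.1 of polo and 24.3 of CycA. These are approximations, as the lengths come from another annotation and, for Cks85A, span 610 to 2904 nt between transcripts. The log2(RPKM + 1) scale understates changes at such levels: BubR1 in CBP knockdown averaged 0.278 ± 0.151 RPKM, and in control 5.12 ± 2.02 RPKM (SD, n = 2 each).

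Replicate 2 of CBP knockdown was lower than replicate 1 for all 9 genes, and for 67.8% of all genes tested. In NAP-1 knockdown replicate 2 was lower for 3 of the 9 genes (53.7% of all genes), and in control for 8 of the 9 (51.4%). The number of calls changed with single libraries, though an omission leaves a group with 1 sample, whose spread is then assumed to be like that of the other groups. Without CBP knockdown replicate 1 the log2 differences of the 8 genes called in CBP knockdown lay between -3.50 (polo) and -1.61 (Cap-G). Without CBP knockdown replicate 2, 0 of the 9 genes and 0 of all 4020 genes passed. The adjusted p of the 8 genes then lay between 0.115 and 0.176 and their log2 differences between -2.10 (BubR1) and -1.003 (Cap-G). For polo the difference was -1.31 without replicate 2 and -3.50 without replicate 1. Without control replicate 1 the counts were again 0 of 9 and 0 of 4020, at an adjusted p between 0.126 and 0.179, while the log2 differences of the 8 genes lay between -2.30 (polo) and -1.24 (Cap-G), with CycA at -1.78 and Cks85A at -2.17. Without control replicate 2, BubR1 and sti passed (adjusted p = 0.0419 each), among 252 of all genes, and the 8 differences lay between -2.97 (Cks30A) and -1.37 (Cap-G). Without either NAP-1 knockdown sample polo did not pass, at an adjusted p of 0.0548 without replicate 1 and 0.0524 without replicate 2.

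Differences in CBP knockdown also moved with transcript length. When 3968 genes with a length were put into 5 bins of like size, the median log2 difference was 0.28 in the shortest bin and -1.06 in the longest. BubR1, Cap-G and sti lie in the longest bin, with median transcript lengths of 4626, 4309 and 6078 nt. CycA, polo, Incenp and Mad1 lie in the bin below it, whose median was -0.43. With this trend removed in each sample, 3 of the 9 genes were lower and passed, beside 9.75% of all genes, and 0 were higher and passed, beside 11.4%. These 3 were CycA at -1.19 (limma, adjusted p = 0.0311), Cks30A at -2.57 (adjusted p = 0.0297) and Cks85A at -2.40 (adjusted p = 0.0197). Cks85A and Cks30A, with 666 and 1147 nt, are the shortest of the 9 and lie in bins whose medians were 0.28 and 0.16. The length of Cks85A is a median over 3 transcripts of 610 to 2904 nt, so its place among the bins is uncertain. With the longest transcript of each of the 9 genes as its length, an alternative added after the data were seen, Cks85A stood at -1.54 (limma, adjusted p = 0.0388), and the same 3 genes passed. A trend on length was not confined to CBP knockdown. In NAP-1 knockdown the median difference from control was 0.07 in the shortest bin and -0.32 in the longest. Differences between replicates 2 and 1 had Spearman correlations with length of -0.25 in control, -0.28 in CBP knockdown and 0.11 in NAP-1 knockdown.

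The other 5 genes called did not pass once the length trend was removed. BubR1 stood at -1.13 (limma, adjusted p = 0.0527), Mad1 at -1.10 (adjusted p = 0.0538) and polo at -1.83 (adjusted p = 0.0581), each on the same side of 0 as before. For sti the value was -0.63 (adjusted p = 0.154) and for Cap-G -0.27 (adjusted p = 0.451). Incenp was at 1.69 (adjusted p = 0.0733). The part that this trend has in the differences of single genes was not tested otherwise.

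**Figure D4:**
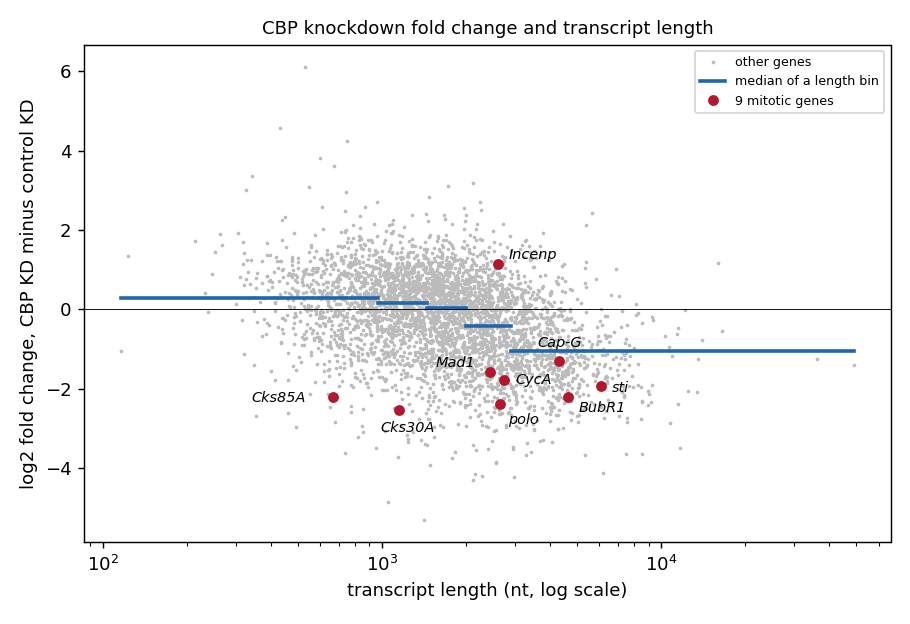
Log2 fold change in CBP knockdown minus control (vertical axis) against transcript length in nucleotides (horizontal axis, log scale) for 3968 genes with a length. Grey points are genes, blue lines the medians of 5 bins of genes by length, and red points the 9 genes. The medians are 0.28 in the shortest bin and -1.06 in the longest, and Cks85A and Cks30A lie far under the medians of their bins.

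In NAP-1 knockdown none of the 9 genes differed from control past the threshold (limma, adjusted p = 0.978 for each, 0 of 9 at an unadjusted p under 0.05), beside 0.0249% of all genes, a single gene, Nap1. At an unadjusted p under 0.05 there were 139 of all genes. All 9 log2 differences were under 0, and for 6 of the 9 (CycA, Cks30A, polo, BubR1, Cap-G and sti) both NAP-1 knockdown samples lay under both control samples, as they did for 26.1% of all genes; they lay above for 0 of the 9 and for 8.06% of all genes. The lowest were those of Incenp at -0.87 (95% interval -2.19 to 0.45), Cks30A at -0.87 (-2.24 to 0.50) and BubR1 at -0.68 (-1.54 to 0.19). The interval of Cks85A, at -0.57, ran between -1.59 and 0.46, that of sti, at -0.52, between -1.43 and 0.39, and that of polo, at -0.36, between -1.89 and 1.17. For these 6 genes the interval includes a difference as large as that of Cap-G in CBP knockdown, -1.30. For Mad1 at -0.32, Cap-G at -0.24 and CycA at -0.18 the intervals ended above it.

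The knockdowns were also set against each other; the control samples do not enter these differences, but they share in the estimate of the spread. For 8 of the 9 genes both NAP-1 knockdown samples were above both CBP knockdown samples (32.8% of all genes), and for Incenp both were under (29.8%). Only CycA passed the test among the 9, with 9.22 and 10.6 RPKM in NAP-1 knockdown against 3.78 and 1.65 RPKM in CBP knockdown, and a log2 difference of 1.61 (limma, adjusted p = 0.0497). Over all genes 4.98% passed, 2.66% as higher. The call for CycA was at the edge of the threshold, and with only the 4 knockdown samples in the fit the adjusted p was 0.103. No omission of a single library, control included, left the call standing: the adjusted p then lay between 0.0505 (without CBP knockdown replicate 1) and 0.264 (without CBP knockdown replicate 2). BubR1 differed by 1.55 (adjusted p = 0.0581), Cks85A by 1.64 (0.0702), sti by 1.43 (0.0708), Mad1 by 1.26 (0.0889), Cap-G by 1.07 (0.0951), polo by 2.04 (0.0952) and Cks30A by 1.67 (0.110). Incenp differed by -2.01 (adjusted p = 0.0737).

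Since RPKM is per length, levels can be ordered within a group. In control, polo averaged 55.7 ± 5.49 and Incenp 35.02 ± 10.0 RPKM, followed by Cks30A at 15.5 ± 6.72, CycA at 11.4 ± 0.194, Cks85A at 8.37 ± 0.333, BubR1 at 5.12 ± 2.02, sti at 4.75 ± 2.31, Mad1 at 4.62 ± 0.384 and Cap-G at 3.23 ± 0.289 RPKM (SD, n = 2 each). The samples of Cks30A and CycA overlapped, and BubR1, sti and Mad1 could not be ordered beyond their spread, nor could sti and Cap-G. The places of CycA and Cap-G also rest on counting their repeated features once. With the repeats summed both would stand higher in the order. In CBP knockdown Incenp was highest at 76.9 ± 0.627 RPKM and polo followed at 12.96 ± 12.6 RPKM, with the other 7 between 0.278 and 2.72 RPKM.

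Across the 6 samples, the genes whose log2 values followed CycA most closely were CG43954 (Pearson correlation 0.998), CadN2 (0.998), a neuronal cadherin gene, and Eip63E (0.997), a Cdk gene. Among the 9 genes Cap-G was nearest to CycA at 0.995, in place 11 of 4019 genes, then Mad1 at 0.973, polo at 0.956, Cks85A at 0.942, Cks30A and sti at about 0.94, and BubR1 at 0.921. Incenp ran against it at -0.72. With 3 groups of 2 these values describe mainly the gap between CBP knockdown and the rest, and 6 samples share library effects, so no test is given.

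Other genes were read from lists of related families and pathways. The cyclin and Cdk list holds genes of transcription as well as of the cell cycle. Of its 20 genes tested, 7 (3 of them CycA, Cks30A and Cks85A) passed as lower, beside 17.3% of all genes, and 1, Cdk5 at 1.08 (limma, adjusted p = 0.0435), as higher in CBP knockdown, with a median log2 difference of -0.67. Besides CycA and the Cks genes, the ones with the smallest p were Eip63E at -2.14 (limma, adjusted p = 0.0178), CycT, a cyclin of transcription elongation, at -2.20 (adjusted p = 0.0260), and CycG at -1.45 (adjusted p = 0.0368). Of 5 mitotic kinases and phosphatase genes 3 were lower: polo, BubR1 and endos, an inhibitor of the phosphatase PP2A, at -1.29 (adjusted p = 0.0467). PpV was at 0.59 and Pp2A-29B at -0.14, and neither passed. Of 3 checkpoint genes Bub3, a partner of BubR1, was the one that did not pass, with 18.3 and 18.1 RPKM in CBP knockdown and 16.9 and 28.4 RPKM in control (log2 difference -0.26, adjusted p = 0.541).

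Of 6 condensin and cohesin genes, 3 were lower, Cap-G, Cap-D2 at -1.52 (limma, adjusted p = 0.0246) and Cap-D3 at -1.24 (adjusted p = 0.0337), the last a subunit of a second condensin. Cap, the fly SMC3 subunit of cohesin, was at -1.50 and did not pass (adjusted p = 0.0502). Of 6 cytokinesis genes, sti alone passed; pbl was at 1.06 (adjusted p = 0.0710), nuf at -1.07 and scra, which encodes anillin, at -1.07. Of 5 genes of the anaphase-promoting complex 1 was lower, Cdc27 at -1.89 (adjusted p = 0.0242), while Cdc16 was at -1.26 (adjusted p = 0.0702) and APC4 at 0.60 (adjusted p = 0.126). Neither passenger complex gene passed, the second being Det at 0.06, nor did the kinetochore genes Mis12 at 0.69 and Kmn1 at 0.34. Leaving out the 9 genes, 39 listed genes remained, of which 8 (20.5%) passed as lower and 1 as higher in CBP knockdown, beside 17.3% lower and 8.53% higher among all genes, with a median of -0.34. In NAP-1 knockdown 0 of these 39 passed, with a median log2 difference of -0.22.

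With the length trend removed, Eip63E at -1.45 (limma, adjusted p = 0.0257) and endos at -1.31 (adjusted p = 0.0482) still passed. CycT, CycG, Cap-D2, Cap-D3 and Cdc27 did not, at -1.02, -0.87, -0.48, -0.26 and -1.02. Among the same named genes pbl, at 1.92 (adjusted p = 0.0257), and APC4, at 1.15 (adjusted p = 0.0319), then passed as higher.

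**Figure D5:**
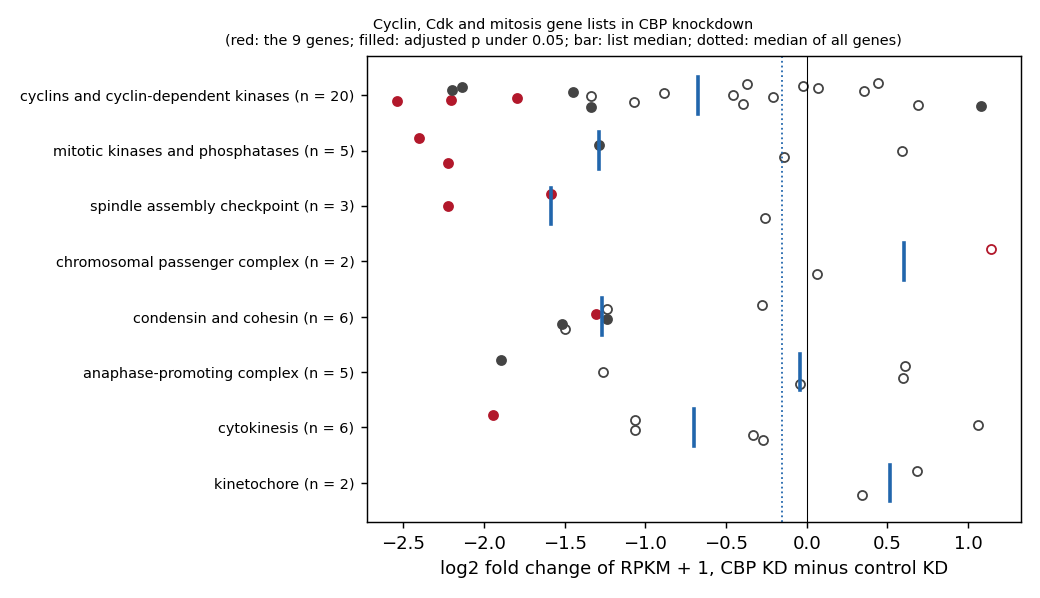
Log2 fold change of RPKM + 1 in CBP knockdown minus control (horizontal axis) for the tested genes of 8 cell-cycle, mitosis and Cdk lists. Each list has 1 point per gene, and BubR1 is shown in both the kinase and the checkpoint list. Red points are among the 9 genes, filled points have an adjusted p under 0.05, blue bars are list medians and the dotted line is the median of all genes. The medians run between -1.59 (checkpoint, 3 genes) and 0.60 (passenger complex, 2 genes).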

How the data were processed

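The authors deposited RPKM values per feature and a count of alignments for each sample. Per the submitters' processing notes the genome build was dm3. The program that aligned the reads is not given in the sources used here, and neither is the quantifier. Libraries were strand-specific mRNA libraries, per the labels' protocols. Features are named by a symbol alone (7156) or by an mRNA and a symbol (9225). At the start 11822 features were left out. The reasons were a mean under 1 RPKM, values repeating another feature of the symbol or, for 1 feature, a name with an apostrophe. The number for each reason is not given here. Of the remaining 4559 features, 4457 were used and summed per symbol, to 4020 genes. The rest were repeats within a symbol, which were counted once, or had a mean under 1 RPKM. Features of Nap1 and nej were kept at any level, including nej features with means of 0.042 and 0.633 RPKM. Differences in log2(RPKM + 1) were tested with limma 3.58.1 in R 4.3.3, as 1 model over 6 samples with a variance trend and Benjamini-Hochberg adjustment over all genes at 0.05. The test was checked on simulated data. Lengths are medians over transcripts in the BDGP6 annotation, known for 3968 genes. Coordinates are not given, because BDGP6 is not the build of the files. In that annotation CycA overlaps CG7264, Mad1 overlaps Cog6, sti overlaps lncRNA:CR45168, and Cks85A overlaps CG8112 and TMEM216; whether reads were counted by strand is not given, so reads of these pairs may be mixed. The length trend was a loess fit (span 0.5) per sample. The 9 genes and the lists were chosen with earlier results of these data known. Genes named were the 9, Nap1 and nej, up to 3 further genes per list by smallest p in CBP knockdown, and the 3 most like CycA. Cdk5 was named because it completes the count of its list, after its values were seen.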

Additional observations from a re-analysis of the deposited data

How the results depend on the processing

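The number of the 9 genes called in CBP knockdown against control was 8 in the analysis as reported. It was 4 of 5 genes tested with a minimum mean of 5 RPKM, 3 with the length trend removed and 0 at an adjusted p of 0.01, and it lay between 0 and 8 with single samples left out. With the replicate number as a block it was 7, as Cap-G did not pass (adjusted p = 0.0513). Other settings gave 6 to 8 calls. With only 4 samples in the fit the 8 calls were 7 lower and 1 higher, as polo did not pass and Incenp passed as higher. Of all genes or features tested, 28.1% passed with the minimum of 5 RPKM, 21.1% with the length trend removed and 0% at an adjusted p of 0.01. With the block 17.5% passed, and with the other settings between 19.4% (single features) and 40.9% (adjusted p of 0.1). In NAP-1 knockdown against CBP knockdown the number was 1, and it was 0 with a pseudocount of 0.1, 4 samples in the fit, the replicate block, no variance trend, single features, the length trend removed or an adjusted p of 0.01. It was 8 at an adjusted p of 0.1 and between 0 and 2 with single samples left out. Over all genes, 200 calls in that comparison became 2 with a pseudocount of 0.1, 1 with 4 samples, 0 with the block and 734 at an adjusted p of 0.1. In NAP-1 knockdown against control it was 0 under every setting run. Log2 differences there changed sign, without passing, for CycA (0.062) and Cap-G (0.14) with the length trend removed, and at 0.082 and 0.147 when the longest transcripts of the 9 genes gave their lengths. That setting, added after the data were seen, gave 3 calls in CBP knockdown against control and 0 in NAP-1 against CBP knockdown. With single samples left out they also did so for Incenp (between -1.76 and 0.021), Mad1 (-0.65 to 0.0066) and Cks85A (-1.15 to 0.013), the extremes being reached without one or the other NAP-1 knockdown sample. A minimum of 5 RPKM leaves fewer of the 9 to test and an omitted sample leaves fewer samples; elsewhere the cause was not tested. Of 447 repeated fold changes, 382 kept direction and call, 53 lost the call, 5 gained it and 7 changed sign. In CBP knockdown the median of all genes, -0.15 as reported, became 0.01 after median-of-ratios scaling and 0.12 after quantile normalization. Calls were then 644 lower and 503 higher, and 430 lower and 382 higher, beside 697 and 343; the 8 genes stayed negative under both. Same-numbered samples deviated from their group means with correlations of 0.24 (NAP-1 knockdown and control), 0.12 (CBP knockdown and control) and -0.24 (NAP-1 and CBP knockdown), so the numbers were not taken to pair samples. An analysis with no minimum was not run. At low levels, near a few reads per library, depth limits the precision of BubR1, the Cks genes, Mad1, Cap-G and sti.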

Other observations

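CycB and CycB3, the other mitotic cyclins, lie outside the rule by which genes were named and were chosen after their values were seen. CycB stood at 15.6 and 8.63 RPKM in CBP knockdown, against 12.5 and 14.7 RPKM in control, so the groups overlapped (log2 difference -0.21; limma, adjusted p = 0.656). CycB3 stood at 1.31 and 1.05 RPKM in CBP knockdown, against 3.86 and 5.21 RPKM in control, with no overlap, and did not pass (log2 difference -1.34; limma, adjusted p = 0.118). In NAP-1 knockdown CycB3 had 0.891 and 5.61 RPKM, 1 sample under and 1 above both control samples.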
